A study of Mus musculus with 23 samples.

Results

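The 9 genes described here encode enzymes of bile acid synthesis and conjugation in mouse liver: Cyp7a1, Cyp8b1, Cyp27a1, Cyp7b1, Hsd3b7, Akr1d1, Amacr, Baat and Slc27a5. They were chosen by name. Each was read from the probe sets that the platform annotation gives to that gene symbol alone, and the brightest probe set by mean log2 intensity stood for the gene. The rule found all 9 genes of 19147 named genes, on 10 of 38385 probe sets. Only Amacr had a second probe set.

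The study compared livers of mice lacking P2ry13 (labelled GPR86 KO) with wild-type (WT) livers, in both sexes, on 23 one-colour arrays. The groups were 6 KO females, 6 WT females, 6 KO males and 5 WT males, the last numbered 2 to 6. P2ry13 is a receptor for ADP, and the arrays address how its absence bears on liver transcripts. No other allele or agent is named, and the labels used here name no age, strain, diet, time of collection or deletion design. They do not say whether cages or litters were shared, so p-values measure the spread between these arrays.

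Bile acids are made from cholesterol in hepatocytes. In the classic route, Cyp7a1 adds the first, rate-limiting hydroxyl group at carbon 7, and Cyp8b1 adds the hydroxyl group at carbon 12 that separates cholic acid from the chenodeoxycholic acid and muricholic acid branch. In the alternative route, Cyp27a1 oxidises the side chain first, and Cyp7b1 then hydroxylates the oxysterol. Hsd3b7 and Akr1d1 change the steroid rings in both routes, Amacr and the peroxisomal oxidation enzymes shorten the side chain, and Slc27a5 and Baat join the finished acid to taurine or glycine. The liver senses bile acids through the farnesoid X receptor Nr1h4, which acts through the repressor Nr0b2 to lower Cyp7a1 and Cyp8b1.

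Values are log2 of a linear array intensity, and 1 unit is a doubling. They compare a gene between groups and not one gene with another, since probe sets differ in how well they bind. In linear intensity the arrays had medians of 19.5 to 21.1. P2ry13 read 5.06 to 5.22 in KO females and 6.03 to 6.42 in WT females, and 5.07 to 5.34 in KO males and 5.80 to 6.34 in WT males, so each KO array lay below each WT array of its sex. The hepatocyte gene Alb (albumin) read 14.65 to 14.80 on all arrays. On the 12 female arrays, 4 probe sets of Y-linked genes, which have no transcript there, read 2.53 to 3.69. All 10 probe sets of the bile acid enzymes read above that range on every array. Several markers of other cell types reached into or near it. Among cholangiocyte genes these were Cftr (2.37 to 2.90), Krt7 (3.71 to 4.51), Krt19 (lowest array 3.54) and Epcam (3.75). The lymphocyte genes Cd3g (lowest array 3.04), Cd79a (3.48) and Ms4a1 (3.49) did too. So did the adipocyte genes Adipoq (2.85) and Plin1 (3.08) and the stellate cell gene Des (3.68). KO female replicate 3 had the highest summed intensity of 3 pancreas markers, 397.9 against at most 171.8 on any other array, and of 5 cholangiocyte markers, 170.1 against 163.5 on the next array, WT female replicate 3.

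Promoter sequences of 4 of the 9 genes were found in the RefSeq table of build GRCm38.p6, each with 250 bases before and 50 after the start site. The windows of Cyp8b1 and Akr1d1 are shown because these 2 genes differed between the sexes in opposite directions. Both are written 5′ to 3′ on the strand of the gene, Cyp8b1 from chr9:121916256-121916555 (minus strand) and Akr1d1 from chr6:37529923-37530222 (plus strand), with motif matches in capitals.
Cyp8b1: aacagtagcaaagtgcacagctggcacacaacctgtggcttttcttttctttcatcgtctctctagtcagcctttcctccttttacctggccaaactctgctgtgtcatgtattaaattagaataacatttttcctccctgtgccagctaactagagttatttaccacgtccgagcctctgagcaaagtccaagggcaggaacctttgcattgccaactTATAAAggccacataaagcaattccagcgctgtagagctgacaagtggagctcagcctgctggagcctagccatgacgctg
Akr1d1: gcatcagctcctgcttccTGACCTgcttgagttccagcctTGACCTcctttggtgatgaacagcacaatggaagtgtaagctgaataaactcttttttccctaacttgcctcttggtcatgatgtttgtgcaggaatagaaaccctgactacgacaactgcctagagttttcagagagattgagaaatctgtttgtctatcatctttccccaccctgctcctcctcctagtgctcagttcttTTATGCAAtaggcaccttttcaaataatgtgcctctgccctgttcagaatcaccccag

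The motifs, chosen after the array values had been seen, were searched on both strands. They were the STAT5 motif TTCNNNGAA (in 8.3% of 32851 promoter windows of this length), the nuclear receptor half-site AGGTCA (16.3%), the LRH-1 motif TCAAGGTCA, which contains the half-site (0.423%), the HNF1 motif (0.00913%), the C/EBP motif TTGCNNAA (10.8%) and the TATA box TATAAA (13.6%). In Cyp8b1 the capitals mark a TATA box at -31 to -26 from the start site. In Akr1d1 they mark the reverse complement of the half-site at -232 to -227 and at -210 to -205, and the reverse complement of the C/EBP motif at -8 to -1. The Hsd3b7 window held a STAT5 match at -21 to -13, and the Cyp27a1 window held none of the 6 motifs. A match is a run of letters and not a measured site, and the windows do not cover more distant control regions.

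Loss of P2ry13 was not accompanied by a called change in any of the 9 enzymes. In females, none passed in limma with Benjamini-Hochberg adjustment over all probe sets, where 0.0547% of probe sets were called, and none had an unadjusted p under 0.05, as 5.87% of probe sets did. In males, none passed, where 0.0313% were called, and Cyp7a1 alone of the 9 had an unadjusted p under 0.05, as 6.14% of probe sets did (limma, adjusted p of Cyp7a1 = 0.794). Averaged over the sexes, none passed, where 0.0808% were called, and none had an unadjusted p under 0.05, as 6.91% did. The median log2 fold change of the 9 genes, KO minus WT, was 0.01 in females and -0.05 in males, beside -0.0058 and -0.0042 over all probe sets. No gene separated KO from WT arrays without overlap in either sex, as 0.229% of probe sets did in females and 0.555% in males.

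**Figure D1:**
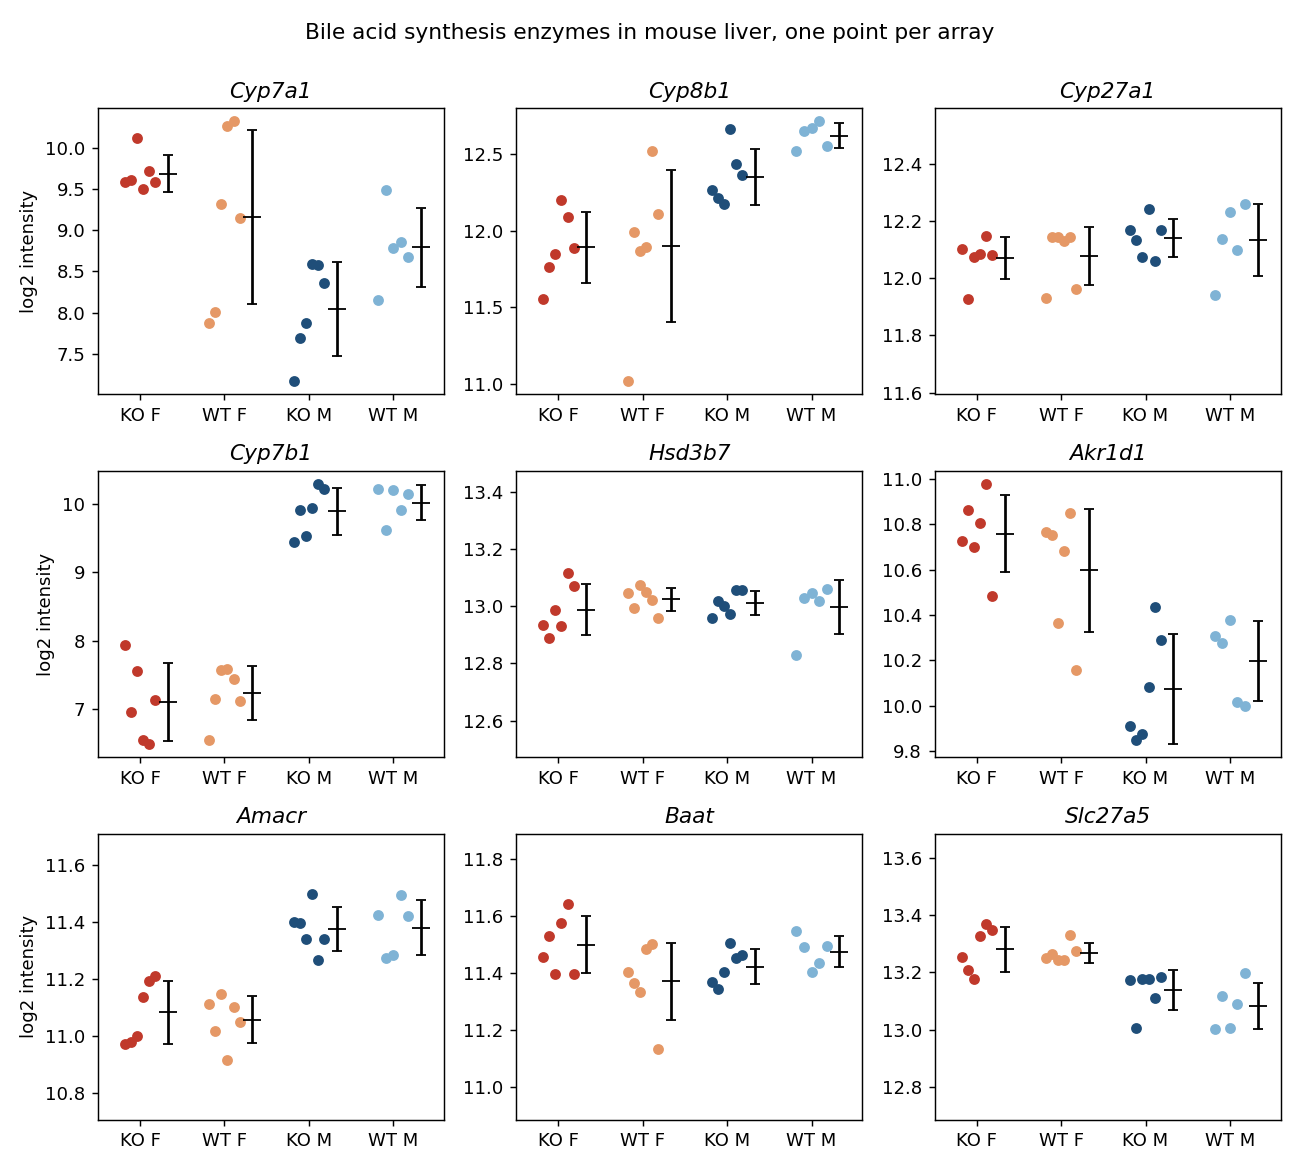
Log2 intensity of the 9 enzymes on each array (points), with the group mean and SD (black bars), for KO F, WT F, KO M and WT M, where F is female and M is male; each panel has its own axis. Cyp7b1 lay between 6.49 and 7.93 in females and between 9.44 and 10.29 in males, and KO and WT points overlap within each sex in every panel.

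Cyp7a1, the first enzyme of the classic route, had the widest spread of the 9 in WT females, KO males and WT males, but not in KO females, where Cyp7b1 and Cyp8b1 had a larger SD. It read 9.50, 9.60 and 10.12 (lowest, median and highest log2 intensity) in KO females and 7.88, 9.24 and 10.33 in WT females, so the KO values lay inside the WT range. In males it read 7.16, 8.12 and 8.59 in KO livers, and 8.15, 9.49, 8.78, 8.86 and 8.67 in WT replicates 2 to 6. Of the 6 KO males, 3 lay below all WT males. The log2 fold change was 0.53 in females (SE 0.33, 95% interval -0.14 to 1.20, limma, adjusted p = 0.886) and -0.75 in males (SE 0.34, 95% interval -1.45 to -0.04). The female value rested on single WT arrays: it was 0.27 without WT female replicate 1 and 0.30 without replicate 2, and 0.76 was the highest value with 1 array left out. The difference of these effects, females minus males, was 1.28 (SE 0.47, 95% interval 0.30 to 2.25, limma, adjusted p = 0.962). None of the 9 genes passed for this difference, where 0.0104% of probe sets were called, and Cyp7a1 alone had an unadjusted p under 0.05, as 5.14% of probe sets did.

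The spread of Cyp7a1 itself differed between groups as a description: its SD was 0.22 in KO females, 1.06 in WT females, 0.57 in KO males and 0.48 in WT males. The median SD over all probe sets was 0.145, 0.148, 0.141 and 0.143 in the same groups. Clock factors that act on Cyp7a1 were read beside it, since its transcript cycles through the day. Of 8 factors, none passed in either sex (limma), with 7 positive and a median of 0.245 in females and 4 positive and a median of -0.0054 in males. Nr1d1, the clock repressor REV-ERB alpha, had a log2 fold change, KO minus WT, of 0.66 in females and -0.33 in males (limma, adjusted p = 0.836 and 0.898). Their part in the Cyp7a1 values was not tested.

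Cyp8b1, the sterol 12-hydroxylase, read 11.55, 11.87 and 12.20 in KO females and 11.02, 11.94 and 12.52 in WT females. In males it read 12.17, 12.31 and 12.66 in KO livers, and 12.52, 12.65, 12.67, 12.71 and 12.55 in WT replicates 2 to 6, with 5 of 6 KO males below all WT males. The log2 fold change was -0.01 in females (95% interval -0.32 to 0.30) and -0.27 in males (SE 0.16, 95% interval -0.60 to 0.06, limma, adjusted p = 0.838). Under the rule in the design text, an unadjusted one-way analysis of variance with a change over 20%, Cyp7a1 and Cyp8b1 are the 2 members counted in males, where that rule takes in 1.52% of probe sets. The rule counts none of the 9 in females, where it takes in 1.03%.

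Among the other 7 enzymes the largest estimate in either direction was 0.16 on the log2 scale, for Akr1d1 in females. For Cyp27a1, Hsd3b7, Amacr and Slc27a5 the 95% intervals of the log2 fold change lay between -0.15 and 0.16 in females and between -0.14 and 0.18 in males. Cyp7b1, which lies on chromosome 3 as P2ry13 does, read -0.13 in each sex (95% interval -0.55 to 0.29 in females and -0.57 to 0.32 in males). Akr1d1, the ring reductase, read 0.16 in females (95% interval -0.08 to 0.40) and -0.12 in males (-0.37 to 0.13). Baat, which makes the taurine conjugates, read 0.13 in females (-0.01 to 0.26) and -0.05 in males (-0.19 to 0.09). With 1 array left out, the Cyp7b1 value ranged from -0.29 to -0.0069 in females and from -0.23 to -0.04 in males, and the Akr1d1 value in males from -0.19 to -0.08. Without WT female replicate 6 the female values of Akr1d1 and Baat were 0.07 and 0.08. The 95% intervals bound the size of a change and do not show that the genotypes are alike.

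**Figure D2:**
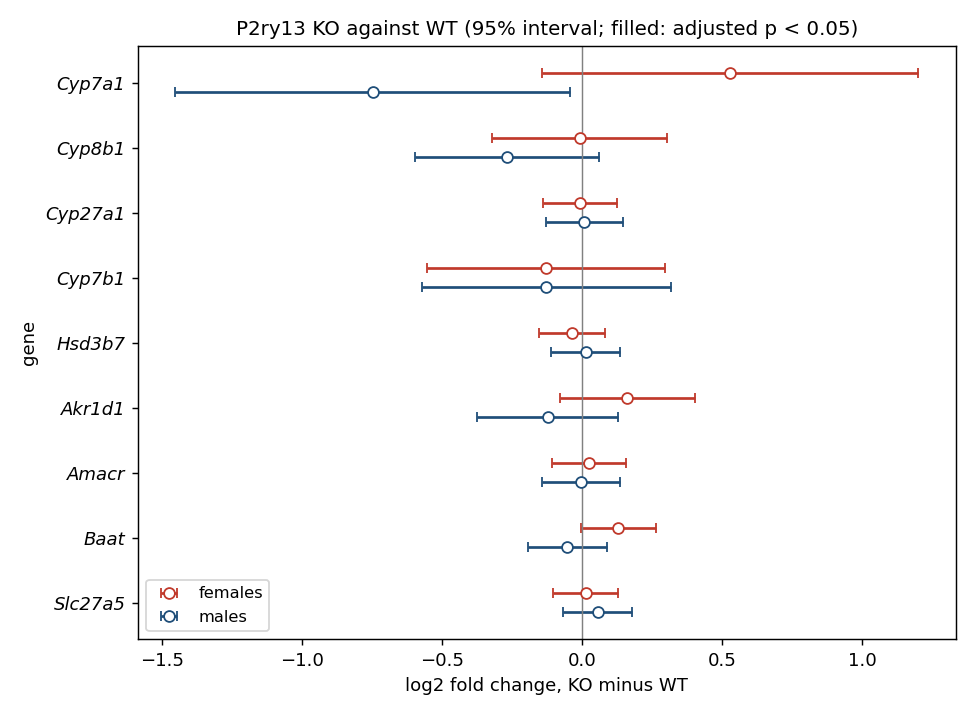
Log2 fold change of each enzyme, KO minus WT (horizontal axis), in females (red) and males (blue), with 95% intervals from limma; open symbols did not pass an adjusted p of 0.05. All 18 symbols are open, and the widest intervals belong to Cyp7a1, -0.14 to 1.20 in females and -1.45 to -0.04 in males.

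Other genes of the pathway were read in the same comparison. Of 12 measured enzymes and carriers of bile acid synthesis outside the 9, none passed in either sex, with a median of -0.03 in females and -0.03 in males. None of 18 regulators and none of 12 bile salt transporters passed in either sex, with medians of 0.07 and 0.04 in females and 0.09 and 0.0017 in males. Among transporters, Slco1a1 read -0.80 in females and -0.17 in males (limma, adjusted p = 0.285 and 0.942). Among regulators, the repressor Nr0b2 read -0.16 in females and 0.13 in males, and the receptor Nr1h4 -0.0078 and -0.18 (limma, adjusted p = 0.917, 0.932, 0.996 and 0.794). Of 6 genes that modify or clear bile acids, the sulfotransferases Sult2a1 (3.44, SE 0.28) and Sult2a2 (5.00, SE 0.39) rose in KO females (limma, adjusted p = 1.27e-08 and 6.07e-09) and none passed in males. With variances taken gene by gene from the female arrays alone, neither Sult2a call held after adjustment (one-way test, adjusted p = 0.0504 for each). Probe sets can share signal between these close paralogs, so their separate sizes are uncertain. Of 8 measured genes known for higher levels in female liver, 2 passed as higher in KO females. The log2 fold change was positive for all 8 in females (median 0.64) and for 2 in males (median -0.04). The 2 that passed in females were Sult2a1, already counted above, and Hao2 (2.64, SE 0.30, limma, adjusted p = 1.14e-05). Of 5 known for higher levels in male liver, 2 fell in KO females.

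Between females and males, averaged over genotypes, 6 of the 9 enzymes passed (limma, Benjamini-Hochberg): Cyp7a1, Akr1d1 and Slc27a5 were higher in females, as 5.96% of probe sets were, and Cyp7b1, Cyp8b1 and Amacr were lower in females, as 4.55% were. Cyp27a1, Hsd3b7 and Baat did not pass. In all, 10.5% of probe sets were called. The median log2 fold change of the 9 genes was -0.01, the same at 2 decimals as the median over all probe sets. The count of 6 was reached in each alternative run for this comparison, leaving out each array in turn included.

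Within KO livers, 4 of 9 passed, with Cyp7a1 and Akr1d1 higher in females and Cyp7b1 and Amacr lower, where 4.85% of probe sets were called, 3.21% higher and 1.64% lower. Within WT livers, 3 of 9 passed, all lower in females (Cyp7b1, Cyp8b1 and Amacr), where 4.25% of probe sets were called, 2.54% higher and 1.71% lower. Females and males did not overlap for 4 of 9 genes in KO livers (Cyp7a1, Cyp7b1, Akr1d1 and Amacr), as for 3.38% of probe sets, and for 3 of 9 in WT livers (Cyp7b1, Amacr and Slc27a5), as for 3.86%. A call in one genotype and not in the other does not show that the genotypes differ. None of the 9 passed for the difference of the effects, which does not show that the genotypes are alike.

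**Figure D3:**
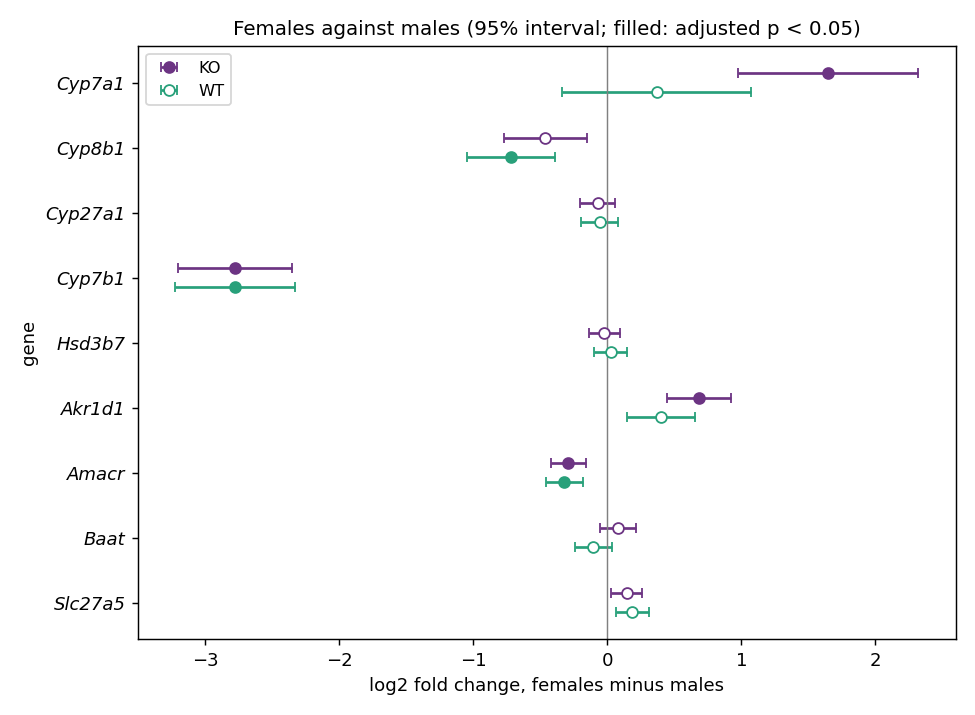
Log2 fold change of each enzyme, females minus males (horizontal axis), in KO livers (purple) and WT livers (green), with 95% intervals from limma; filled symbols passed an adjusted p of 0.05. Cyp7b1 stands apart at -2.78 in both genotypes, and the Cyp7a1 symbols lie at 1.65 in KO and 0.37 in WT.

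Cyp7b1, the oxysterol 7-hydroxylase of the alternative route, had the widest sex difference. In KO livers it read 6.49, 7.05 and 7.93 in females and 9.44, 9.93 and 10.29 in males. In WT livers it read 6.55, 7.30 and 7.59 in females, and 10.21, 9.61, 10.21, 9.91 and 10.14 in male replicates 2 to 6. The highest female array lay below the lowest male array in each genotype. The fold change was 6.86-fold lower in females in each genotype, at -2.78 on the log2 scale (SE 0.21 in KO and 0.22 in WT, limma, adjusted p = 1.38e-10 and 5.83e-10). The 95% interval of the difference between genotypes ran from -0.62 to 0.61.

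Cyp8b1 was lower in females by 0.59 on the log2 scale as the average of both genotypes (-0.59, SE 0.11, 1.51-fold, limma, adjusted p = 0.00045). In WT livers it was -0.72 (SE 0.16, limma, adjusted p = 0.00619), with 5 of 6 females below all males. With the variance taken from the WT arrays alone and not shared as in limma, this call ended (one-way test, adjusted p = 0.168). WT female replicate 1, at 11.02, was the lowest array of all. In KO livers the difference was -0.46 (SE 0.15, limma, adjusted p = 0.0854), again with 5 of 6 females below all males. That comparison passed without WT female replicate 1 (limma, adjusted p = 0.00984) or WT female replicate 5 (0.0443), arrays that enter only its estimate of the spread, and with only the compared groups in the fit (0.0161).

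Cyp7a1 was 2.01-fold higher in females averaged over genotypes (1.01, SE 0.24, limma, adjusted p = 0.00481). In KO livers each of the 6 females lay above each male, 3.13-fold higher on average (1.65, SE 0.33, limma, adjusted p = 0.00171). KO female replicate 3, with the high pancreas and cholangiocyte marker sums, was also the highest KO array for Cyp7a1, and without it the difference was 1.56 (limma, adjusted p = 0.00601). In WT livers the groups overlapped, with 2 of 6 females above and 2 of 6 below all males (0.37, SE 0.34, limma, adjusted p = 0.66). Single arrays moved this value widely: it was 0.63 and 0.60 without WT female replicates 1 and 2, 0.15 and 0.14 without WT female replicates 4 and 5, and 0.21 without WT male replicate 2.

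Akr1d1, which reduces the double bond of the steroid ring, read 10.48, 10.77 and 10.98 in KO females and 9.85, 9.997 and 10.43 in KO males. In WT livers it read 10.16, 10.72 and 10.85 in females, and 10.31, 10.28, 10.38, 10.02 and 9.9998 in male replicates 2 to 6. The KO groups did not overlap, and in WT livers 4 of 6 females lay above all males. Females were 1.46-fold higher on average (0.54, SE 0.08, limma, adjusted p = 4.56e-05). The difference was 0.69 in KO livers (SE 0.12, limma, adjusted p = 0.000285) and 0.40 in WT livers (SE 0.12, limma, adjusted p = 0.0634). The WT comparison passed without WT female replicate 3 (0.0456), WT female replicate 6 (0.0139) or KO male replicate 5 (0.0465).

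Slc27a5, the bile acid CoA ligase, was 1.12-fold higher in females averaged over genotypes (0.16, SE 0.04, limma, adjusted p = 0.00817). It read 13.18 to 13.37 in KO females and 13.005 to 13.185 in KO males, and 13.24 to 13.33 in WT females and 13.003 to 13.20 in WT males. Within a genotype it did not pass (limma, adjusted p = 0.177 in KO and 0.0786 in WT), although the WT groups did not overlap and 5 of 6 KO females lay above all KO males. Baat, the enzyme after it, differed by 0.08 in KO livers (95% interval -0.06 to 0.21) and by -0.10 in WT livers (-0.24 to 0.04).

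Amacr, the racemase that prepares the side chain for peroxisomal oxidation, was 1.24-fold lower in females (-0.31, SE 0.05, limma, adjusted p = 3.36e-05). It read 10.97, 11.07 and 11.21 in KO females and 11.27, 11.37 and 11.50 in KO males, and 10.92, 11.08 and 11.15 in WT females against 11.42, 11.27, 11.28, 11.50 and 11.42 in WT males. Females lay below males without overlap in each genotype. Its second probe set was dim, between 4.37 and 5.36 on all arrays, and averaged 4.87 in KO females and 5.06 in KO males, and 4.83 in WT females and 5.06 in WT males.

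Cyp27a1, the sterol 27-hydroxylase, and Hsd3b7, the ring dehydrogenase, had the smallest sex differences beside Baat. Averaged over genotypes they read -0.06 (SE 0.05, limma, adjusted p = 0.45) and 0.0022 (SE 0.04, limma, adjusted p = 0.985). Over all 23 arrays Cyp27a1 lay between 11.93 and 12.26, and Hsd3b7 between 12.83 and 13.12.

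Other steps of the pathway showed the sexes apart in the same comparison, averaged over genotypes. Of 12 measured enzymes and carriers outside the 9, 4 were lower in females, none higher, and 8 did not pass. The 4 were the peroxisomal side-chain enzymes Acox2 (-0.35, SE 0.05), Scp2 (-0.29, SE 0.04) and Hsd17b4 (-0.22, SE 0.04), and Fdx1 (-0.23, SE 0.05), the ferredoxin that passes electrons to mitochondrial cytochromes such as Cyp27a1 (limma, adjusted p = 3.89e-05, 3.53e-06, 0.000763 and 0.00245). Acox2, Hsd17b4 and Scp2 act on the side chain after Amacr. The median of the 12 was -0.00085, beside -0.01 over all probe sets.

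Of 18 measured regulators, 6 were higher in females, 1 was lower and 11 did not pass, with a median of 0.13. The repressor Nr0b2 was lower in females (-0.53, SE 0.10, limma, adjusted p = 0.000714). Higher were the xenobiotic receptor Nr1i3 (0.57, SE 0.07), the coactivator Ppargc1a (0.51, SE 0.07), Klb, the co-receptor for the gut hormone FGF15 (0.41, SE 0.06), and Foxa2, a liver transcription factor (0.48, SE 0.13; limma, adjusted p = 3.21e-07, 4.23e-06, 3.57e-05 and 0.0195). The remaining 2 were Fgfr4, the receptor partner of Klb (0.24, limma, adjusted p = 0.0275), and Nr1i2 (0.20, limma, adjusted p = 0.0187). The Fgfr4 call ended without KO female replicate 6 or WT male replicate 2, and with array weights (limma, adjusted p up to 0.0623). The Nr1i2 call ended under quantile normalization (0.0523). The bile acid receptor Nr1h4 did not pass (-0.10, limma, adjusted p = 0.306).

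Of 12 bile salt transporters, 4 were higher and 2 lower in females, and 6 did not pass. The uptake carriers Slc10a1 (0.38, SE 0.04) and Slco1a4 (1.20, SE 0.14) were higher and Slco1a1 was lower (-1.70, SE 0.14, limma, adjusted p = 3.87e-07, 3.18e-07 and 6.54e-10). The export pump Abcb11 (0.15, limma, adjusted p = 0.0461) is 1 of the 4 higher, but its call ended in 18 of 31 alternatives (limma, adjusted p up to 0.157). These were quantile normalization, the replicate block, and leaving out any one of KO female replicates 1, 3, 5 and 6, KO male replicates 1, 2, 4 and 5, WT female replicates 1, 3, 4 and 5, and WT male replicates 2, 4, 5 and 6. Of 8 clock factors, Bhlhe40 was higher in females (0.45, SE 0.11, limma, adjusted p = 0.00905) and 7 did not pass. Of 6 genes that modify or clear bile acids, Sult2a1, Sult2a2 and Cyp2b10 were higher in females, Ephx1 and Sult2a8 were lower, and Cyp3a11 did not pass. For 2 of them the average hides a difference between genotypes. Sult2a2 read 6.21 in KO livers and 1.29 in WT livers, where it did not pass (limma, adjusted p = 0.073), and Sult2a1 read 6.68 and 3.18. The difference of KO effects, females minus males, passed for both (4.92 and 3.50, limma, adjusted p = 6.27e-05 for each).

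**Figure D4:**
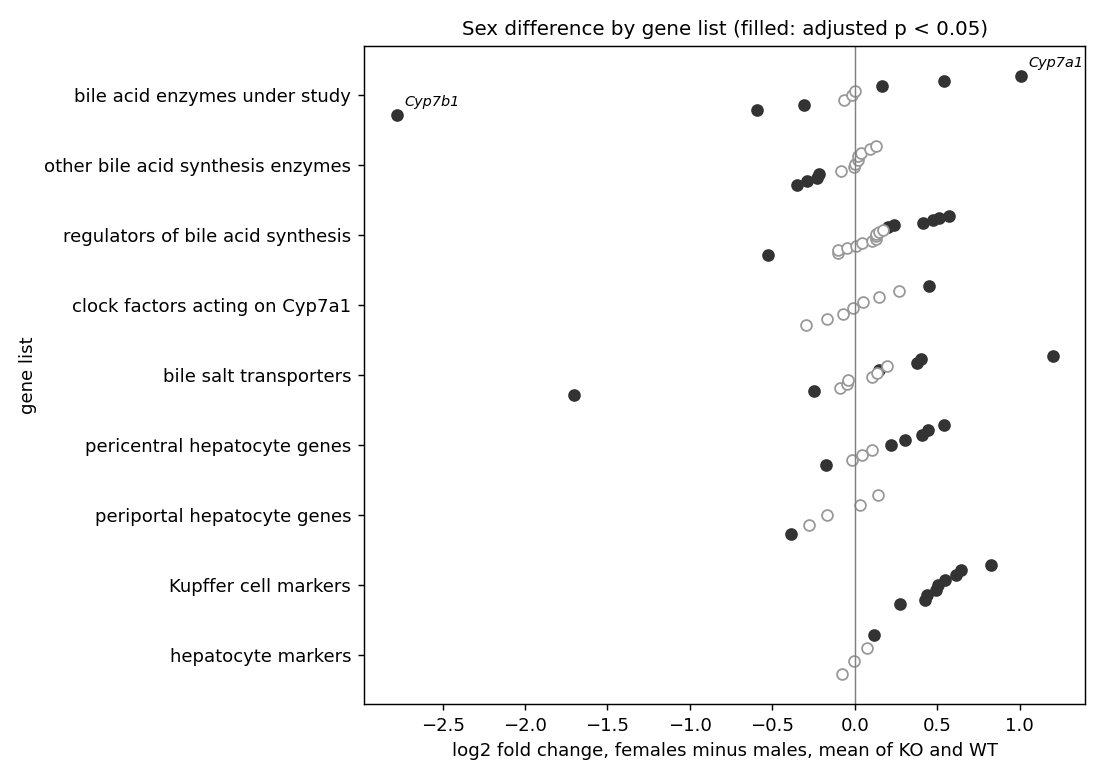
Log2 fold change, females minus males as the mean of KO and WT livers (horizontal axis), for each measured gene of 9 lists (rows); filled points passed an adjusted p of 0.05 in limma. Among the 9 enzymes Cyp7b1 lies at -2.78 and Cyp7a1 at 1.01, and all 9 Kupffer cell markers lie at positive values.

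Markers of other cell types also differed between the sexes. All 9 Kupffer cell markers were higher in females (0.27 to 0.83 on the log2 scale, limma), though Clec4f did not pass under quantile normalization. Their summed linear intensity was 6044 to 7966 in KO females and 4078 to 5702 in KO males, and 5803 to 7189 in WT females and 4034 to 5562 in WT males, and the dimmest, Marco, read at least 4.18 in log2. The sum of the 4 measured hepatocyte markers was 58860 to 60730 in KO females and 57940 to 59710 in KO males, and 60010 to 63400 in WT females and 57360 to 59990 in WT males; 1 of the 4, Apoh, passed (0.12, limma, adjusted p = 0.0314). The Apoh call ended in 6 of 31 alternatives: the replicate block, and without KO male replicate 2 or 5 or WT male replicate 2, 4 or 5 (limma, adjusted p up to 0.0633). Of 6 sinusoidal endothelium markers 4 were higher in females, of 6 stellate cell markers 2, of 5 lymphocyte markers 2, and of 3 adipocyte and 3 pancreas markers none. Among the sinusoidal markers, the Clec4g call (0.23) ended in 6 of 31 alternatives: quantile normalization, and without KO female replicate 4 or 5, KO male replicate 3, or WT male replicate 3 or 6 (limma, adjusted p up to 0.0588). One of 5 cholangiocyte markers, Sox9, was lower, as was Alas2, the only measured blood marker. In bulk liver RNA, fewer cells of a type and less RNA per cell cannot be told apart.

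Regions of the liver lobule were read because several of these enzymes differ between hepatocytes near the central vein and near the portal tract. Of 9 pericentral genes, 5 were higher in females, 1 was lower and 3 did not pass, with a median of 0.22. The lower one was Cyp1a2 (-0.17, limma, adjusted p = 0.032), whose call ended in 9 of 31 alternatives (adjusted p up to 0.0838). These were quantile normalization, equal array medians, and leaving out KO female replicate 4 or 6, KO male replicate 1 or 6, WT female replicate 2, or WT male replicate 4 or 5. Of 5 measured periportal genes, Cyp2f2 was lower in females (-0.39, SE 0.05, limma, adjusted p = 6.56e-06) and 4 did not pass. As checks on the sexes, all 8 measured female-biased liver genes were higher in females and all 5 measured male-biased genes lower. The part of these cell types and regions in the sex differences of the bile acid enzymes was not tested.

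Whether the enzymes vary together among animals of one group was asked with deviations from the group means over the 23 arrays, for 36 pairs. One pair passed after Benjamini-Hochberg adjustment over the pairs: Akr1d1 and Baat, with Pearson r = 0.715 (permutation within groups, two-sided, p = 0.0003, adjusted p = 0.0108) and Spearman rho = 0.657 (permutation p = 0.00183, adjusted p = 0.0659). Without the 2 arrays farthest from the Akr1d1 median r was 0.563, and the pair no longer passed (permutation, adjusted p = 0.213). Leaving out arrays by their Akr1d1 value narrows its range, so the loss cannot show whether the relation rests on those arrays. Within groups r was 0.875 in KO females, 0.885 in WT females and 0.68 in KO males, 6 arrays each, and -0.0193 in the 5 WT males, where the relation was not seen. Cyp7a1 and Cyp8b1 had r = 0.584 and rho = 0.514 (permutation, adjusted p = 0.27 and 0.343), with r = 0.198 without the 2 farthest arrays.

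**Figure D5:**
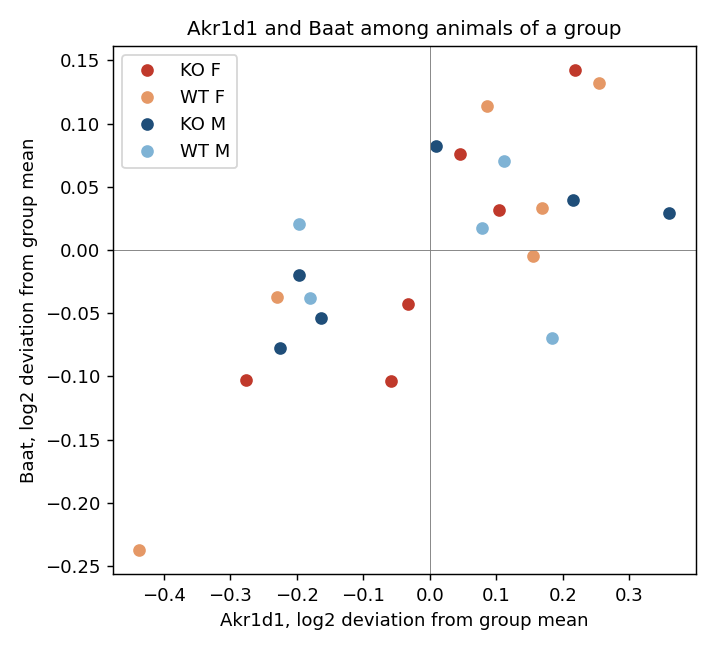
Deviation of Akr1d1 (horizontal) and Baat (vertical) from the group mean, in log2 units, 1 point per array, coloured by group. The points rise together with r = 0.715 over 23 arrays, and the WT female at -0.44 and -0.24 lies farthest from the rest.

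Over all named genes, those most like each enzyme in the same deviations were listed as a description. For each enzyme the 3 highest were picked among probe sets with 1 gene symbol, clone and predicted-gene names left out. Since they were chosen for their rank, no p is given. Akr1d1 was most like Apip, of methionine salvage (r = 0.919, rho = 0.872), Dbt, of branched-chain amino acid breakdown (r = 0.878, rho = 0.826), and Vdac1, a mitochondrial channel (r = 0.842, rho = 0.875). Cyp7b1 was most like the sulfotransferase gene Sult5a1 (r = 0.759, rho = 0.723). For Cyp27a1, Stard4, a sterol carrier of the pathway list, came second (r = 0.756, rho = 0.772). Cyp7a1 was most like Olfr152 (r = 0.776, rho = 0.764), and Baat most like Lrrc40 (r = 0.842, rho = 0.846).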

How the data were processed

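The deposited table holds 1 linear intensity per probe set and array, 38385 probe sets on 23 arrays, which the authors computed by RMA, per the submitters' processing notes. Those notes as used here name no version or settings. RNA was amplified to biotin-labelled cRNA per the labels' protocols. Arrays give no counts, so the number of arrays limits the precision.

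Groups came from the sample titles. Intensities were turned to log2 and fitted for all probe sets and 23 arrays with limma 3.58.1 in R 4.3.3, with 1 mean per group (19 residual and 7.61 prior degrees of freedom), Benjamini-Hochberg adjustment across the whole table, and an adjusted p under 0.05 as passing. Errors beside fold changes are standard errors. Of the probe sets, 24478 had 1 gene symbol, 65 several and 13842 none here; 24237 were found in RefSeq (GRCm38.p6) by Entrez ID, which updated their symbols. Permutations, 100000 within groups, and figures used Python 3.11.15. The fit was tested on simulated data.

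The 9 genes, the lists (other synthesis enzymes, regulators, clock factors, transporters, bile acid clearance, lobule zones, sex-biased genes and cell type markers) and the tests were chosen with earlier results of these data known. Named are the 9 genes, P2ry13, list members that passed or had the smallest p, and the genes most like a member; not all of these are printed. Each list gene is its brightest probe set. Genes were named from the repository's platform annotation.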

Additional observations from a re-analysis of the deposited data

Results flagged for a closer look

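Among the 40 sets of arrays formed by the 10 probe sets and 4 groups, 5 held 1 array far from the others by Dixon's test, where chance flags about 1 in 20. Cyp7a1 read 10.12 in KO female replicate 3, where the next array read 9.72. Cyp27a1 read 11.93 in KO female replicate 2, where the next read 12.07. Hsd3b7 read 12.83 in WT male replicate 2, where the next read 13.02. The dim second probe set of Amacr read 5.23 in KO female replicate 2, where the next read 4.88. Slc27a5 read 13.33 in WT female replicate 5, where the next read 13.28.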

How the results depend on the processing

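In the KO against WT comparisons and their difference, the count of the 9 enzymes that passed stayed at 0 under every alternative except one: an unadjusted plain analysis of variance with a change over 20% counts 2 in males, a rule that makes no adjustment. Between the sexes averaged over genotypes the count was 6 throughout. In WT livers the count of 3 became 5 under quantile normalization, with dim probe sets left out, and with each gene's probe sets averaged, through Akr1d1 and Slc27a5. In the last 2 of these settings their log2 fold changes stayed at 0.40 and 0.19, and only the error and the adjustment differed. Under quantile normalization they were 0.39 and 0.23, and the cause was not tested. Leaving out each array gave 3 to 4 in WT livers, 4 to 5 in KO livers, 6 for the average and 0 to 0 for the comparisons of genotypes. Of 2061 recomputed values of the 9 enzymes, 2038 stayed on their side of the setting's own threshold, 22 newly passed and 1 no longer passed. Those newly passing include Cyp7a1 and Cyp8b1 between genotypes in males, and Akr1d1 in WT and Cyp8b1 in KO livers between the sexes. These passed the unadjusted rule with a change over 20%, where the adjusted p was 0.0761 to 0.84 (one-way test). Of the called values 0 changed sign, and of the values that had not passed 99 did. The count of 1 correlated pair became 0 under quantile normalization, 0 with the replicate block, 2 with equal array medians, and 0 without the 2 arrays farthest from the median. Replicate numbers are shared between groups but did not pair the arrays: same-numbered deviations correlated at -0.143 to 0.215 in the 4 comparisons, and 0 to 1 arrays per comparison correlated best with their own number. With the replicate block, 3 enzymes passed between the sexes in WT livers, 5 in KO livers and 6 on average. Changes near 0.3 on the log2 scale in variable genes such as Cyp7a1, whose 95% intervals span more than 1 unit, cannot be told from 0 with these array numbers.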
